A study of Mus musculus with 88 samples.

Results

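A set of 10 genes, of the 54532 in the count table, was described in mouse cortex after controlled cortical impact: 7 targets of the transcription factor NRF2 (Nqo1, Gclc, Gclm, Srxn1, Txnrd1, Slc7a11 and Gsr) and 3 metallothioneins (Mt1, Mt2 and Mt3). They were found by matching the Ensembl identifiers of the table to these symbols, and each symbol had 1 identifier. On build GRCm38 the metallothioneins lie close together on the plus strand of chromosome 8, Mt3 (ENSMUSG00000031760) at 94152607 to 94154146, Mt2 (ENSMUSG00000031762) at 94172664 to 94173568 and Mt1 (ENSMUSG00000031765) at 94179082 to 94180327; Gsr (33652523 to 33698163) and Nqo1 (107388225 to 107403206, minus strand) are on the same chromosome. Srxn1 is on chromosome 2 (152105516 to 152111376), Gclm and Slc7a11 on 3 (122245557 to 122270732, and 49892526 to 50443614 on the minus strand), Gclc on 9 (77754535 to 77794485) and Txnrd1 on 10 (82833951 to 82897712). The libraries came from 44 male and female C57BL/6 mice, bought at 7 weeks and injured at 8 to 9 weeks (the age of the naive mice at sampling was not given), with intact gonads per the design text and no transgene. Controlled cortical impact is a piston blow to the exposed brain; here a 2 mm tip struck the right somatosensory cortex at 6.0 m/s to a depth of 1 mm, through a 3 mm craniotomy under isoflurane, and buprenorphine at 0.05 mg/kg was given afterwards. The mice were perfused with buffer, and 4 mm punches were taken over the injury (ipsilateral) and from the opposite cortex (contralateral), each sequenced as polyadenylated RNA. At 24 h after injury there were 15 ipsilateral and 15 contralateral libraries, at 72 h 15 and 16, and naive mice gave 13 and 13, their right punch being the one named ipsilateral. No sham-operated mice are among the samples used here, so the impact cannot be told apart from craniotomy, anaesthesia and analgesic.

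NRF2, encoded by Nfe2l2, is held by KEAP1 in the cytoplasm and sent for degradation; oxidants and electrophiles modify KEAP1, and NRF2 then reaches the nucleus and, with a small MAF partner, binds antioxidant response elements. Its targets make glutathione (Slc7a11 brings in cystine, Gclc and Gclm form the rate-limiting ligase), keep it and thioredoxin reduced (Gsr and Txnrd1), repair overoxidised peroxiredoxins (Srxn1) and reduce quinones (Nqo1). In the brain this pathway is known mainly from astrocytes. Metallothioneins are small cysteine-rich proteins that bind zinc and copper; Mt1 and Mt2 are induced by metals through the factor MTF1 and by glucocorticoids and inflammatory signals, and Mt3 is the brain form, described as little induced by metals.

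The promoters that hold the elements named after these pathways are shown for 4 members, the 2 NRF2 targets with the smallest p at 24 h (Srxn1 and Txnrd1) and 2 metallothioneins (Mt1 and Mt2). Each window holds 250 bases before the RefSeq start site and 50 bases from it, on the gene's strand, build GRCm38.p6: Srxn1 chr2:152105274-152105573 (plus strand), Txnrd1 chr10:82858956-82859255 (plus strand, the second of its 3 start sites), Mt1 chr8:94178839-94179138 (plus strand) and Mt2 chr8:94172368-94172667 (plus strand). Capitals mark matches on either strand to the antioxidant response element cores TGACNNNGC or TGAGNNNGC in Srxn1 and Txnrd1, and to the metal response element cores TGCACNC or TGCGCNC in Mt1 and Mt2.
Srxn1: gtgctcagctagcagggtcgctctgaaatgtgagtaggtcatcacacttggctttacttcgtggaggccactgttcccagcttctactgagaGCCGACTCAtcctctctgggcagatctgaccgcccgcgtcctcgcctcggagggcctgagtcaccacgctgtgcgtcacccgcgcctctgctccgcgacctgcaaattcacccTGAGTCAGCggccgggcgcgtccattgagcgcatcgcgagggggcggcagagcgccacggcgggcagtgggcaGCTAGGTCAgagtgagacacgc
Txnrd1: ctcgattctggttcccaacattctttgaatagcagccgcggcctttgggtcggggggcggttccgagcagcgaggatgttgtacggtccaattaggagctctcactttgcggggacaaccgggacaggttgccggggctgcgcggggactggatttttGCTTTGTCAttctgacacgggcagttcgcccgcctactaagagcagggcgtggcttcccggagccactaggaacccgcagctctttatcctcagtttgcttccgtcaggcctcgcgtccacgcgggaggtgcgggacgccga
Mt1: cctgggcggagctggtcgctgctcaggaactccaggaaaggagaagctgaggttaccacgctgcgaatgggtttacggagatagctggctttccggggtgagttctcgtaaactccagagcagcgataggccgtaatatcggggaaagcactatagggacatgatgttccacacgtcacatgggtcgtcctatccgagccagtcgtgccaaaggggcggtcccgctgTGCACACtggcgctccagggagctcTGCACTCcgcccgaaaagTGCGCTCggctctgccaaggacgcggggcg
Mt2: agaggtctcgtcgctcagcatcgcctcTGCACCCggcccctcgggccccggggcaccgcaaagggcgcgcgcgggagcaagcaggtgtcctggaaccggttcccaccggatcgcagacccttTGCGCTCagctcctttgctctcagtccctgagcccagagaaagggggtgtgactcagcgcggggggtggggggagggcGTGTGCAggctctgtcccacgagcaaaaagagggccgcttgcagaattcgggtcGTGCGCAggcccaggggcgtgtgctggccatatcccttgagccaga
With the start site as base 1, the 3 Srxn1 matches begin at -158, -45 and 29, and the one at -45 also holds TGAGTCA, the letters bound by AP-1. The same letters also stand in the Srxn1 window outside the marked matches. The Txnrd1 match begins at -92. Mt1 has 3 metal response element cores, at -23, 3 and 21. Mt2 has 4, at -223, -128, -50 and 5, and 1 antioxidant response element core at -79 that is left in lower case. This core, TGACTCAGC, holds the AP-1 letters TGAGTCA on the other strand.

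Windows were given for 8 of the 10 members. An antioxidant response element core was present 3 times in Srxn1 and once each in Gclm, Slc7a11, Mt2, Mt3 and the second Txnrd1 window, and Nqo1 had none in its window. Metal response element cores numbered 4 in Mt2, 3 in Mt1, 3 in Gclm, 1 in Mt3 and 1 in Srxn1, and 1 of those in Gclm overlapped its antioxidant response element core. Of all 32851 windows of this length in the RefSeq table, 27.8% hold an antioxidant response element core and 25.7% a metal response element core, so a match is a description of letters and not of binding.

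The libraries held 10.6 to 26.36 M counts (M, 1000000 counts; median 16.25), of which 2.35 to 10.48% came from mitochondrial genes. One ipsilateral library (animal PM1, 72 h) is given both sexes in its labels and entered no comparison, which leaves 87 of 88. The ipsilateral library of animal PF1 (72 h), labelled female, held male transcripts (Xist 0.108 CPM, summed Y-linked genes 99.2), and its contralateral library female ones (486 and 0), so these punches go against their label of 1 animal. They were kept as labelled, and results that rest on them are given with and without them where a call or count moved. Animals of batch A were naive or at 24 h, batch B held all times, and all of batch C were at 72 h. Only batch B holds both 72 h and naive ipsilateral libraries, 5 and 4 of them. Batch A bears on that comparison through the 24 h group that it shares with B. Batch C, with 10 of the 15 ipsilateral libraries at 72 h, holds no other time. With the batch term, the fitted 72 h differences from naive and from 24 h therefore rest on the 72 h libraries of batch B. Ranges, medians and counts of punches at 72 h cover batches B and C. The ipsilateral punches of PF1 and of LF3, an animal described below, are both among the 5 of batch B.

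One animal must be named before the results. Both libraries of LF3, a female at 72 h in batch B, stood apart from the other 72 h libraries. LF3 had 3137 CPM (counts per 1000000 counts, scaled by the TMM method) of Mt1 in the ipsilateral and 1253 in the contralateral punch, which is 13 and 11.9 times the median of the others. Its Mt3 was 2245 and 1567 CPM, 15.5 and 13.8 times that median. Its ipsilateral library was the shallowest, at 10.6 M counts, with 10.48% mitochondrial counts, and the contralateral one had 13.83 M and 7.8%. Summed neuron markers were highest of the 72 h libraries in LF3 on both sides (15510 and 21420 CPM), and summed astrocyte markers were lowest (2404 and 2143). Whether these features have a part in its metallothionein levels was not tested. Results of the members at 72 h are therefore given with and without LF3, an alternative chosen after its values were seen, and those of other genes where LF3 changed a call or moved a called value by over 1.5 times.

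Mt2 needs a second caution. It had 995 counts in all 88 libraries together, against 291353 for Mt1, and 432 of its 588 exon bases (73.5%) lie under the antisense gene Gm45774, which had 672 counts. The strand of the libraries is not given, and without it reads from the overlapping stretch cannot be told apart, so the level of Mt2 in this table is uncertain. Antisense or overlapping genes also touch Gclm (Gm17494, 9059 counts beside 93406 of Gclm), Txnrd1 (Eid3, Gm38560 and Gm47073, at most 549 counts), Slc7a11 (at most 72 counts) and Gsr (Gm24727, 192 counts).

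In naive ipsilateral cortex, divided by exon length, the members ranged widely. Mt3 and Mt1 were highest, at 128.5 ± 23.5 and 115.4 ± 13.7 CPM per kilobase (SD, n = 13), and these 2 do not differ beyond their spread. Srxn1 followed with 34.3 ± 3.53 and Gclc with 16.4 ± 1.37 CPM per kilobase. Gclm (9.14 ± 0.99), Gsr (8.92 ± 1.64) and Txnrd1 (7.93 ± 0.98) lay within their spread of each other. Slc7a11 (3.58 ± 1.23), Nqo1 (1.76 ± 0.47) and Mt2 (0.39 ± 0.56) were lowest. The naive contralateral punches gave the same order except that Gclm, Gsr and Txnrd1, at 9.13, 9.12 and 8.27 CPM per kilobase, were closer still. These are bulk samples, in which more cells of a type and more RNA per cell cannot be told apart.

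**Figure D1:**
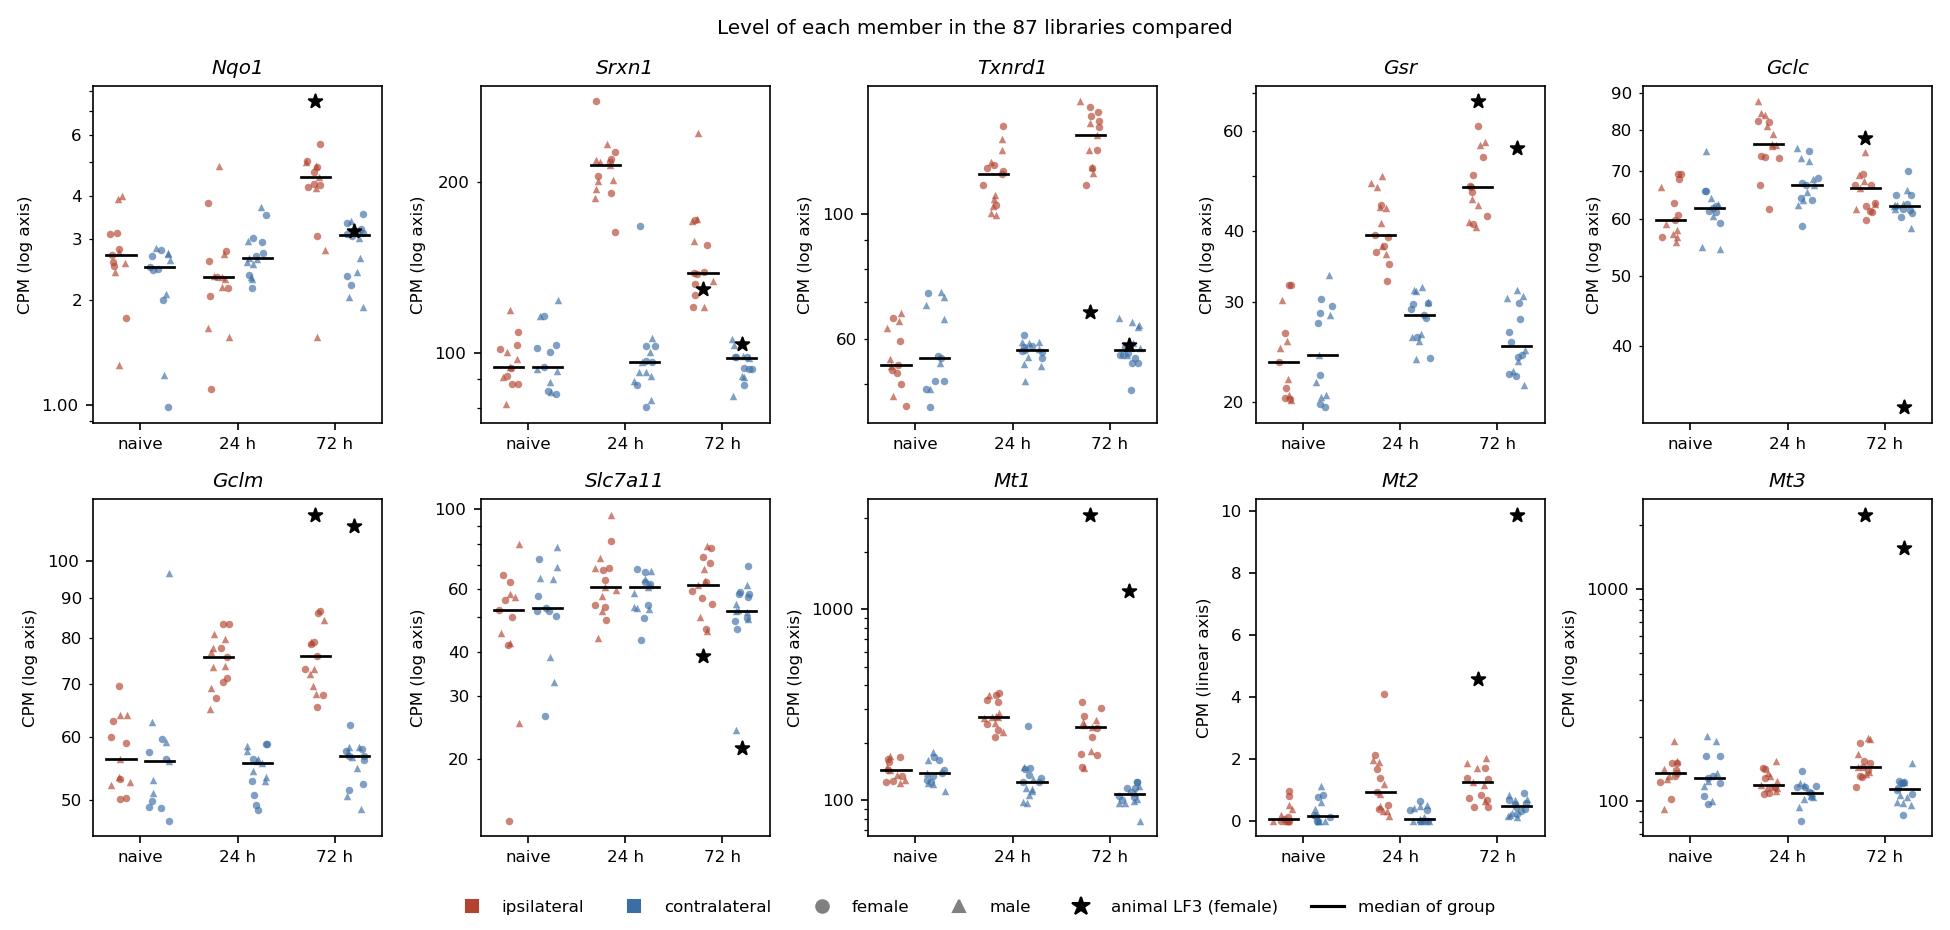
Level of each member in CPM in every library (log axes, Mt2 linear), by time and side; circles are females, triangles males, stars the 2 libraries of LF3, and bars group medians. Srxn1, Txnrd1 and Gsr of the injured ipsilateral punches lie above all naive ipsilateral punches at 24 and 72 h, and the stars of Mt1 and Mt3 lie far above all other libraries.

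The enzymes that return peroxiredoxins, thioredoxin and glutathione to their reduced form rose in injured ipsilateral cortex at both times. Srxn1, sulfiredoxin, had 81.5 to 119 CPM (median 94.3) in naive ipsilateral punches, 163 to 277 (median 214) at 24 h and 120.4 to 243 (median 138) at 72 h. No injured punch of either time fell into the naive range. How many of all genes separate from naive in this way was not counted, here or for the members below. Srxn1 was 1.09 ± 0.08 higher on the log2 scale (SE) at 24 h than in naive punches (adjusted p = 3.94e-15, edgeR quasi-likelihood F test) and 0.57 ± 0.11 higher at 72 h (adjusted p = 6.27e-05). Between the times it fell, by 0.51 ± 0.11 at 72 h against 24 h (adjusted p = 0.000285). Without LF3 the 72 h difference from naive was 0.58 ± 0.12 (adjusted p = 0.000109) and that from 24 h -0.50 ± 0.12 (adjusted p = 0.000988). At 72 h 11 of 15 punches lay below the lowest at 24 h. The highest at 72 h was the ipsilateral punch of TM2, a male, with 243 CPM.

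Txnrd1, cytosolic thioredoxin reductase, had 45.6 to 66.7 CPM (median 54.1) in naive ipsilateral punches, 99.7 to 143 (median 118) at 24 h and 67.0 to 159 (median 138) at 72 h. The value of 67.0 was LF3, and the next lowest at 72 h was 113. Both times were clear of the naive range, which ended at 66.7. The log2 differences from naive were 1.01 ± 0.08 at 24 h (adjusted p = 7.9e-14) and 0.98 ± 0.12 at 72 h (adjusted p = 4.68e-09), or 1.10 ± 0.10 at 72 h without LF3 (adjusted p = 2.01e-12). The level at 72 h did not differ detectably from that at 24 h (-0.03 ± 0.11, adjusted p = 0.833), and without LF3 this difference was 0.10 ± 0.09 (adjusted p = 0.447).

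Gsr, glutathione reductase, had 20.2 to 32.2 CPM (median 23.5) in naive ipsilateral punches, 32.6 to 50.1 (median 39.3) at 24 h and 40.6 to 67.8 (median 47.9) at 72 h. Again no injured punch overlapped the naive ones. Gsr was higher by 0.69 ± 0.08 at 24 h (adjusted p = 4.21e-09) and by 0.91 ± 0.12 at 72 h (adjusted p = 5.06e-08), or 0.78 ± 0.12 at 72 h without LF3 (adjusted p = 4.81e-07). At 72 h against 24 h it was 0.22 ± 0.12 higher with all libraries (adjusted p = 0.124), 0.31 ± 0.12 without the PF1 punch (adjusted p = 0.0346) and 0.10 ± 0.11 without LF3 (adjusted p = 0.529). In naive punches Gsr was higher in batch B (median 31.2 CPM) than in batch A (21.2), and within batches its 24 h difference was 0.45 ± 0.15 in B (adjusted p = 0.0414) and 0.84 ± 0.08 in A (adjusted p = 1.01e-07).

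Both subunits of the enzyme that starts glutathione synthesis rose at 24 h. Gclm, the modifier subunit of glutamate-cysteine ligase, had 50.2 to 69.6 CPM (median 56.3) in naive ipsilateral punches, 65.1 to 83.5 (median 75.7) at 24 h and 65.5 to 114.6 (median 75.9) at 72 h. At each time 12 of 15 injured punches lay above the highest naive one. Its log2 difference from naive was 0.40 ± 0.07 at 24 h (adjusted p = 7.32e-06) and 0.53 ± 0.10 at 72 h (adjusted p = 5.39e-05), and 0.36 ± 0.09 at 72 h without LF3 (adjusted p = 0.000694).

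Gclc, the catalytic subunit, had 55.7 to 69.5 CPM (median 59.9) in naive ipsilateral punches, 62.1 to 87.6 (median 76.4) at 24 h and 59.8 to 77.8 (median 66.3) at 72 h. At 24 h 13 of 15 punches were above the naive range, and at 72 h 2 of 15 were. Gclc rose by 0.33 ± 0.05 at 24 h (adjusted p = 5.81e-07). At 72 h the difference was 0.22 ± 0.07 (adjusted p = 0.015), and it lost its call without LF3 (0.15 ± 0.07, adjusted p = 0.079), in which case the fall of Gclc at 72 h against 24 h, -0.17 ± 0.07, passed the test (adjusted p = 0.0427). The 72 h call was lost as well without the batch term (0.10, adjusted p = 0.077), without the filter on low counts (0.23, adjusted p = 0.054) and within batch B (0.22, adjusted p = 0.108).

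Slc7a11, the cystine-glutamate exchanger, overlapped widely between groups: 13.5 to 79.8 CPM (median 52.4) in naive ipsilateral punches, 43.6 to 96.7 (median 60.8) at 24 h and 39.0 to 79.1 (median 61.4) at 72 h. The fitted differences were 0.48 ± 0.15 at 24 h (adjusted p = 0.00816) and 0.56 ± 0.22 at 72 h (adjusted p = 0.0365). Without LF3 the 72 h value was 0.65 ± 0.23 (adjusted p = 0.0177). The batches differed: in batch B the 4 naive ipsilateral punches had a median of 33.5 CPM, and the 9 of batch A one of 56.9. Within batch B the 24 h difference was 0.99 ± 0.25 (adjusted p = 0.0107), and within batch A it was 0.15 ± 0.14 (adjusted p = 0.439). The 72 h call was also lost when any of 5 single libraries was left out, at 0.38 to 0.53. Without the batch term both calls were lost, at 0.34 at 24 h (adjusted p = 0.0706) and 0.27 at 72 h (adjusted p = 0.119). They were also lost without LF3 and the batch term (0.34, adjusted p = 0.0567, and 0.29, adjusted p = 0.0813).

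Nqo1, a quinone reductase often used as a reporter of NRF2, was low, at 1.3 to 3.99 CPM (median 2.71) in naive ipsilateral punches, 1.12 to 4.87 (median 2.33) at 24 h and 1.57 to 7.49 (median 4.53) at 72 h. The 24 h punches covered the naive range, and the difference was -0.11 ± 0.18 (adjusted p = 0.676). By 72 h 12 of 15 punches were above the naive range. Nqo1 was then 0.93 ± 0.27 above naive (adjusted p = 0.0045) and 1.04 ± 0.25 above 24 h (adjusted p = 0.00119). Without LF3 both rises kept their call, at 0.75 ± 0.28 (adjusted p = 0.0254) and 0.86 ± 0.26 (adjusted p = 0.00941). In the whole table Nqo1 had 4317 counts over the 88 libraries.

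Mt1 rose at both times. It had 123.6 to 170.0 CPM (median 143.7) in naive ipsilateral punches, 214 to 364 (median 273) at 24 h and, LF3 apart, 147.9 to 329 (median 241) at 72 h. All 15 punches at 24 h, and 12 of the 14 at 72 h without LF3, were above the naive range. The difference at 24 h was 1.02 ± 0.27 with all libraries in the fit (adjusted p = 0.00172) and 1.02 ± 0.10 without LF3 (adjusted p = 8.67e-11). At 72 h it was 2.32 ± 0.41 with LF3 (adjusted p = 8.86e-06) and 0.58 ± 0.16 without (adjusted p = 0.00306). LF3 also set the direction between the times: Mt1 at 72 h was 1.29 ± 0.38 higher than at 24 h with this animal (adjusted p = 0.00665) and 0.43 ± 0.16 lower without it, written as -0.43 (adjusted p = 0.0338). Within batches the 24 h difference was 1.11 ± 0.08 in A (adjusted p = 3.62e-09) and 0.90 ± 0.58 in B, the batch of LF3 (adjusted p = 0.301).

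Mt3, on chromosome 8 with Mt2 between it and Mt1, was called at 72 h and not at 24 h. It had 91.6 to 192.8 CPM (median 136.2) in naive ipsilateral punches, 108.6 to 154.5 (median 119.5) at 24 h and, without LF3, 116.8 to 198 (median 144.9) at 72 h. None of the 24 h punches left the naive range, and the difference was -0.12 ± 0.25 (adjusted p = 0.731; without LF3 -0.13 ± 0.09, adjusted p = 0.215). At 72 h Mt3 was 1.97 ± 0.38 above naive with LF3 (adjusted p = 4.79e-05) and 0.32 ± 0.14 above it without (adjusted p = 0.0563), so the call at 72 h rests on 1 animal. Its rise from 24 to 72 h passed the test both ways, at 2.09 ± 0.35 (adjusted p = 1.17e-05) and 0.44 ± 0.13 without LF3 (adjusted p = 0.00652).

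Mt2 was near the limit of these libraries. It had 0 to 16 counts (median 1, with 6 of 13 libraries at 0) in naive ipsilateral punches, 3 to 72 (median 15) at 24 h and 8 to 36 (median 23) at 72 h. The fit gave 2.13 ± 0.41 at 24 h (adjusted p = 4.1e-05) and 1.75 ± 0.53 at 72 h (adjusted p = 0.00565). Without LF3 the 72 h value was 0.86 ± 0.47 (adjusted p = 0.131). Within batch B alone neither call passed, at 1.55 ± 0.60 at 24 h (adjusted p = 0.0765) and 1.25 ± 0.65 at 72 h (adjusted p = 0.152). Its median in 24 h ipsilateral punches was 0.39 CPM in batch A and 1.78 in batch B, and in naive ones 0 and 0.65. The share of these counts that belongs to Gm45774 was not tested.

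All 10 members passed the filter on low counts in every fit that used all batches. At 24 h 8 of the 10 were called higher and 0 lower in injured ipsilateral cortex, where 22.9% of all 19126 genes tested were called higher and 20.1% lower. The members' median log2 difference was 0.59, against 0.01 over all genes. At 72 h 10 of 10 were called higher, against 27.8% of all genes (20.7% lower), with a median of 0.92 against 0.06. Without LF3 the 72 h count was 7 (Nqo1, Gclm, Srxn1, Txnrd1, Slc7a11, Gsr and Mt1), against 25.7% of 19062 genes. Between 72 and 24 h, Nqo1, Mt1 and Mt3 were called higher and Srxn1 lower, against 21.7% and 15.3% of all genes. Without LF3, Nqo1 and Mt3 were called higher and Srxn1, Gclc, Mt1 and Mt2 lower, against 18.5% and 14.7%. The 24 and 72 h comparisons share their naive punches. Within batch B alone 6 members were called higher at 24 h (13.1% of genes) and 7 at 72 h (19.4%), and within batch A alone 6 at 24 h (19.4%), with 0 called lower; batch C has no naive punches.

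**Figure D2:**
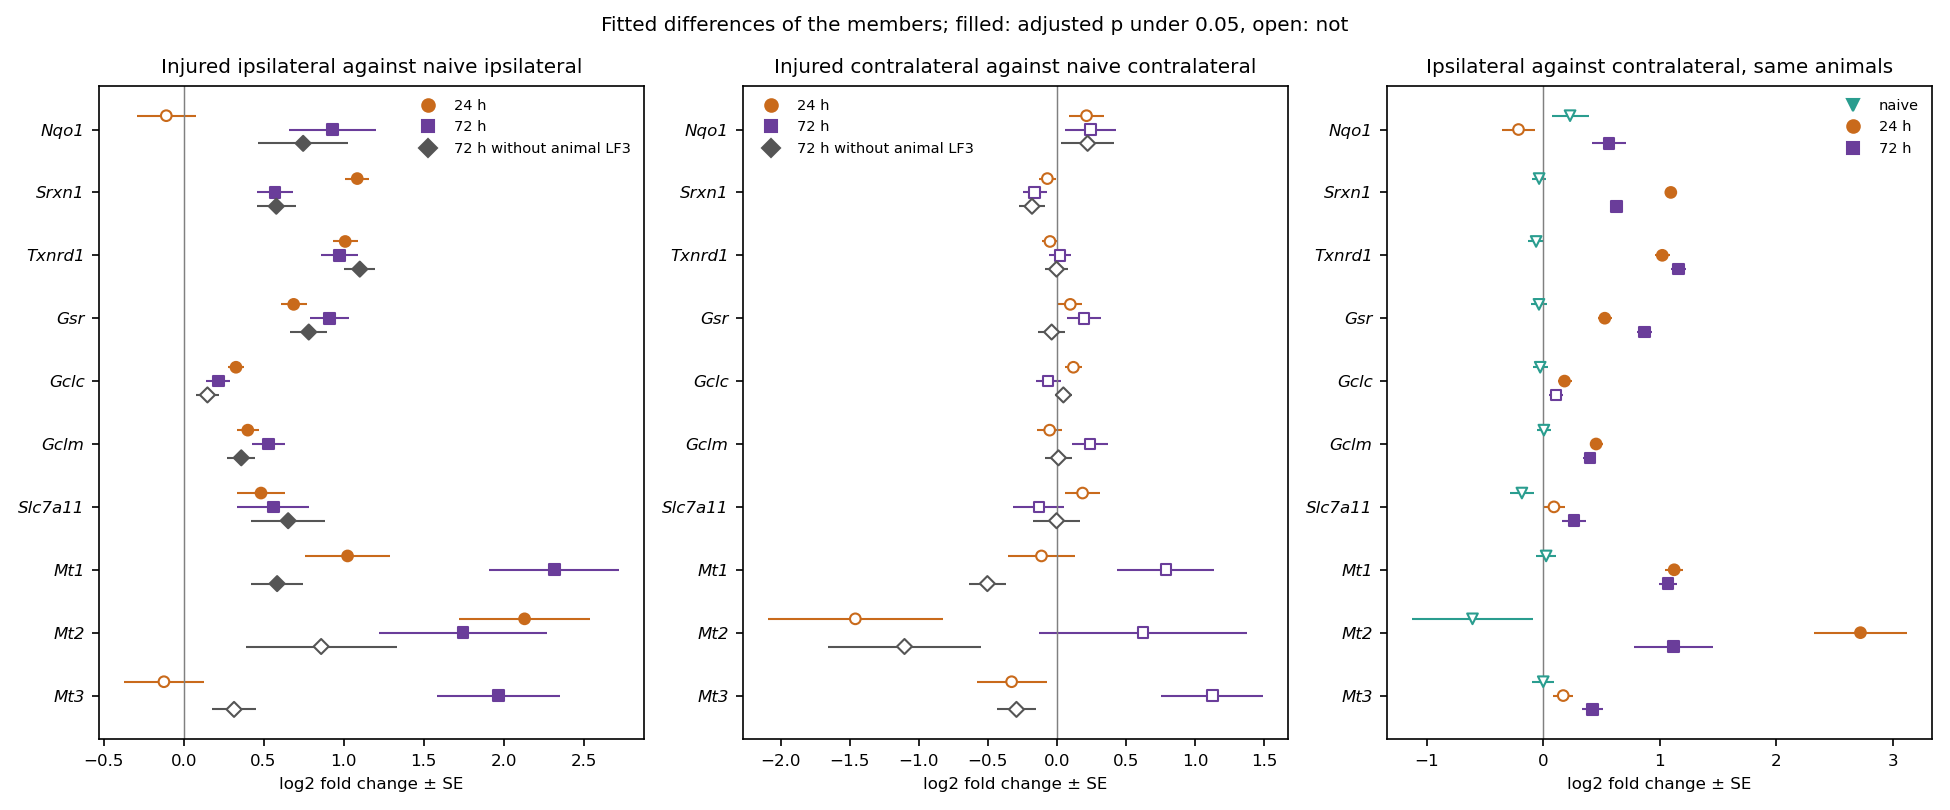
Log2 fold change and SE of each member in injured against naive ipsilateral punches (left), injured against naive contralateral punches (middle) and ipsilateral against contralateral punches of the same animals (right); filled symbols passed an adjusted p of 0.05. On the left 8 members are filled at 24 h and 10 at 72 h, or 7 without LF3, and in the middle none is filled.

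On the contralateral side none of the members was called at 24 or 72 h against naive in edgeR. DESeq2 called none either, but it gave no adjusted p for Mt1 and Mt3 there, so its counts do not bear on these 2. In edgeR 0.819% of 18436 genes were called higher and 1.29% lower at 24 h, and 0.244% and 0.0163% at 72 h. At an unadjusted p under 0.05, edgeR counted 1 member at 24 h (Mt2) and 2 at 72 h (Mt1 and Mt3), and DESeq2 2 (Gclc and Mt2) and 0. Srxn1 had a median of 96.3 CPM at 24 h and 98.1 at 72 h, against 94.5 in naive contralateral punches, with differences of -0.07 ± 0.06 and -0.16 ± 0.09. Txnrd1 had 57.5 and 57.4 CPM, against 55.6 (-0.05 ± 0.06 and 0.02 ± 0.08). Gsr had 28.5 and 25.1 CPM, against 24.2 (0.10 ± 0.09 and 0.20 ± 0.13). Nqo1 lay above the naive contralateral range in 5 of 15 punches at 24 h and 10 of 16 at 72 h, or 9 of 15 at 72 h without LF3. Its 72 h difference without LF3 was 0.22 ± 0.19 (adjusted p = 0.974). One contralateral punch at 24 h stood out, that of the female QF1, with 167 CPM of Srxn1 and 245 of Mt1.

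The contralateral metallothioneins depended on LF3. With it, Mt1 at 72 h was 0.79 ± 0.35 above naive (adjusted p = 0.236) and Mt3 1.13 ± 0.37 above (adjusted p = 0.117); Mt3 was called in females alone (1.67 ± 0.42, adjusted p = 0.0328), where 3.07% of genes were called higher. In females without LF3 it was at -0.19 ± 0.18 (adjusted p = 0.968), with 0 members and 0.0488% of genes called higher, and without the contralateral library of PF1, but with LF3, Gclm, Mt1 and Mt3 were called higher there (10.6% of genes). Without LF3 both lay below naive. Mt1 then had 78.2 to 125.4 CPM (median 105.3) at 72 h, against 112.3 to 178.8 (median 138.7) in naive contralateral punches, and 10 of 15 punches lay under the naive range (-0.50 ± 0.14, adjusted p = 0.192). Mt3 had a median of 113.2 CPM against 128.9 (-0.29 ± 0.14, adjusted p = 0.851). At 24 h Mt3 passed the test as lower without LF3 (-0.33 ± 0.09, adjusted p = 0.026, where 4.07% of genes were called lower), with a median of 109.4 against 128.9 CPM; with LF3 in the fit the value was -0.33 ± 0.25 (adjusted p = 0.611).

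Both punches of an animal can be set against each other, which removes batch and animal. In naive mice no gene of 19946 was called between the sides, and the members' differences lay between -0.61 (Mt2) and 0.23 (Nqo1), with 0 members under an unadjusted p of 0.05 in edgeR and in DESeq2. At 24 h 7 members were higher ipsilaterally (Gclc, Gclm, Srxn1, Txnrd1, Gsr, Mt1 and Mt2), where 23.7% of genes were called higher and 24.1% lower. At 72 h 9 were (all but Gclc), against 31.1% higher and 30.6% lower. The same 7 and 9 members were called without LF3, against 26% and 33.6% of genes called higher. PF1, whose punches hold transcripts of different sexes, is 1 of the pairs at 72 h. Without PF1 the same 7 and 9 members were called, against 23.8% and 31.7% of genes called higher.

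Gclm, Srxn1, Txnrd1, Gsr and Mt1 were higher on the ipsilateral side in 15 of 15 animals at 24 h and in 15 of 15 at 72 h, or in 14 of 14 without PF1. The share of all genes that were higher ipsilaterally in every animal was not counted. The ipsilateral level of Txnrd1 was 1.68 to 2.36 times the contralateral one at 24 h (median 2.04) and 1.14 to 3.11 times at 72 h (median 2.31), with LF3 lowest. For Srxn1 the ratio was 1.66 to 2.65 at 24 h (median 2.14) and 1.25 to 2.46 at 72 h (median 1.49). For Mt1 it was 1.48 to 2.97 at 24 h (median 2.32) and 1.28 to 3.30 at 72 h (median 2.29, with PF1 lowest and 1.46 the next), and the fitted log2 differences were 1.13 ± 0.08 (adjusted p = 2.1e-16) and 1.07 ± 0.08 (adjusted p = 7.49e-16). Because both libraries of LF3 carried the high Mt1, this animal did not stand apart in the ratio, and without it the 72 h difference was 1.07 ± 0.08 (adjusted p = 1.05e-15). Mt3 was higher ipsilaterally in 11 of 15 animals at 24 h (0.17 ± 0.09, adjusted p = 0.101) and in 14 of 15 at 72 h (0.42 ± 0.09, adjusted p = 5.64e-05). The corresponding naive ratios of Txnrd1, Srxn1, Mt1 and Mt3 had medians of 0.97, 1.01, 1.04 and 1.00.

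The difference between the sides changed with time for 4 members, where 18.9% of genes were called higher and 16.4% lower at 72 h against 24 h. It was larger at 72 h for Nqo1 (0.78 ± 0.20, adjusted p = 0.00227) and Gsr (0.34 ± 0.09, adjusted p = 0.00205). Nqo1 was higher ipsilaterally in 12 of 15 animals at 72 h (median ratio 1.65) and in 4 of 15 at 24 h (0.83), and Gsr had median ratios of 1.89 and 1.40. It was smaller at 72 h for Srxn1 (-0.46 ± 0.08, adjusted p = 3.79e-06) and Mt2 (-1.60 ± 0.53, adjusted p = 0.0159). Without LF3 Txnrd1 joined the larger ones (0.20 ± 0.07, adjusted p = 0.0123, where 21.8% of genes were called higher). The 4 without LF3 were 0.75 (Nqo1), 0.38 (Gsr), -0.44 (Srxn1) and -1.44 (Mt2), all called, and without PF1 0.84, 0.35, -0.47 and -1.56, all called. Set against the difference between the sides in naive mice, 6 members had a larger one at 24 h (16% of genes) and 8 at 72 h (25.1%), or 7 and 8 without LF3 (18.6% and 27.8%). Nqo1 and Gclc were the members not called at 72 h, with and without LF3. For Nqo1 the value without LF3 was 0.32 ± 0.21 (adjusted p = 0.218).

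**Figure D3:**
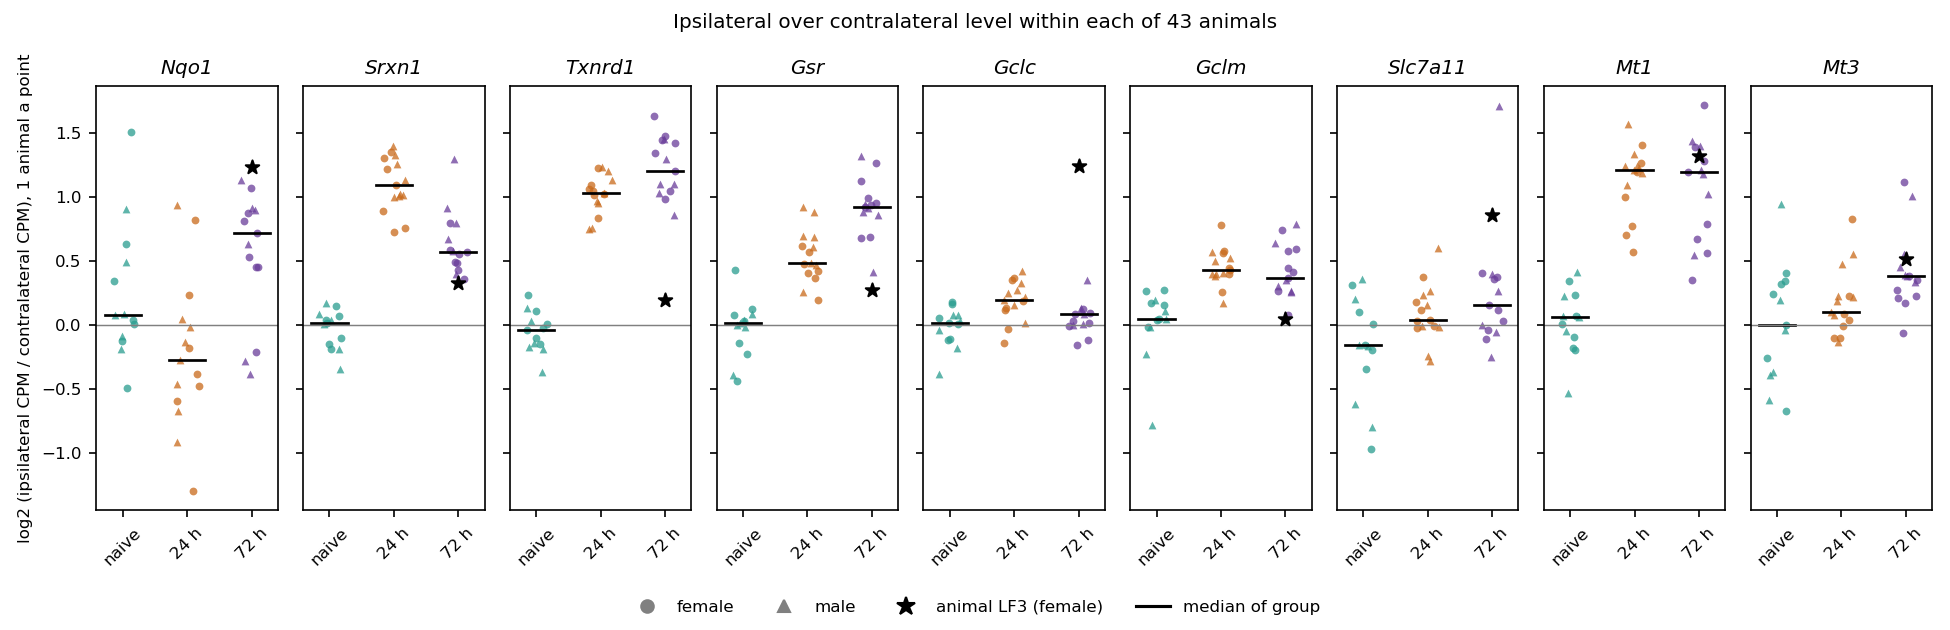
Log2 ratio of the ipsilateral to the contralateral CPM in each animal, for 9 members by time (Mt2, with 0 counts in many punches, is left out); stars mark LF3 and bars medians. Every animal at 24 and 72 h lies above 0 for Srxn1, Txnrd1, Gsr, Gclm and Mt1, and Nqo1 lies mostly under 0 at 24 h and mostly over it at 72 h.

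The study asked whether the sexes respond alike. The female group at 72 h holds LF3 and the PF1 punch with male transcripts. No member, and no gene of the 19126, had a difference between females and males in its response to injury on the ipsilateral side that passed an adjusted p of 0.05 in edgeR, at 24 or at 72 h, nor without LF3 or without the PF1 punch; DESeq2 called 1 gene, not a member, at 24 h and 0 at 72 h. At an unadjusted p under 0.05 edgeR counted 299 genes (1.56%) at 24 h, 1 of them a member (Gclc), and 580 (3.03%) at 72 h, with 0 members. Gclc rose by 0.20 ± 0.07 in females (adjusted p = 0.0229) and 0.45 ± 0.07 in males (adjusted p = 1.69e-06) at 24 h, and the female minus male difference was -0.25 ± 0.10 (adjusted p = 1). For Srxn1 the rises at 24 h were 1.10 ± 0.11 in females and 1.07 ± 0.11 in males, with a difference of 0.03 ± 0.15. For Txnrd1 they were 1.09 ± 0.11 and 0.93 ± 0.11, with a difference of 0.17 ± 0.15. These intervals leave room for differences of the size of the smaller member changes. Between naive females and naive males 7 of 19126 genes were called (0.0366%), none a member, with 0 members under an unadjusted p of 0.05 in both tools. For Mt3 DESeq2 gave no adjusted p in these ipsilateral comparisons.

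Counted within each sex, 8 members were called higher at 24 h in females (16.2% of genes) and 7 in males (16.1%), and at 72 h 7 in females (26.7%) and 8 in males (20.8%). Without LF3 the counts were 8 (19.5%) and 7 (19.2%) at 24 h and 7 (22.9%) and 7 (22.3%) at 72 h, and without the PF1 punch 7 (15.8%) and 7 (15.6%) and 8 (27.5%) and 9 (22%). With all libraries, Nqo1 and Mt3 at 24 h and Slc7a11 at 72 h missed the threshold in both sexes. Slc7a11 at 72 h was thus called only in the average of the sexes. Those that missed it in 1 sex were Slc7a11 in males at 24 h, Gclc and Mt2 in females at 72 h, and Nqo1 in males at 72 h.

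The rest of the pathway was read from lists of its other genes. Over all genes 22.9% were called higher and 20.1% lower at 24 h, and 27.8% and 20.7% at 72 h. Without LF3 these shares were 25.8% and 25% at 24 h, and 25.7% and 22.6% at 72 h. Of 10 regulators of NRF2, 4 rose (Nfe2l2, Bach1, Maff and Mafk) and 1 fell at 24 h, Bach2, another repressor of these elements (-0.57 ± 0.11, adjusted p = 4.58e-05; named after its value was seen). Nfe2l2 itself had a median of 28 CPM at 24 h, against 13.2 in naive ipsilateral punches, and was 1.12 ± 0.14 higher (adjusted p = 6.69e-09), then 1.79 ± 0.20 higher at 72 h (adjusted p = 8e-10). Bach1, the repressor that competes for the same elements, rose by 1.29 ± 0.08 (adjusted p = 2.58e-17) and 1.39 ± 0.11 (adjusted p = 2.37e-13). The small MAF genes Maff (3.66 ± 0.20 and 2.35 ± 0.28) and Mafk (0.92 ± 0.10 and 0.42 ± 0.15) rose most at 24 h and fell between the times (Maff -1.31 ± 0.26, adjusted p = 0.000115; Mafk -0.50 ± 0.14, adjusted p = 0.00401). Keap1, the inhibitor, was at -0.10 ± 0.07 at 24 h (adjusted p = 0.289) and -0.26 ± 0.11 at 72 h (adjusted p = 0.0423; without LF3 -0.14, adjusted p = 0.178). At 72 h 4 of the 10 (40%) rose and 5 (50%) fell (Keap1, Bach2, Nfe2l1, Mafg and Sqstm1), or 4 and 4 without LF3.

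Of 25 other NRF2 targets 24 were tested, and 12 (50%) rose and 5 (20.8%) fell at 24 h, while 18 (75%) rose and 0 fell at 72 h (14 and 6, and 20 and 0, without LF3). Their median difference was 0.28 at 24 h and 0.70 at 72 h, against 0.01 and 0.06 over all genes. Hmox1, heme oxygenase, went furthest, with 131.4 to 284 CPM at 24 h and 245 to 967 at 72 h, against 2.32 to 4.75 in naive ipsilateral punches (5.61 ± 0.20 and 6.60 ± 0.25, adjusted p = 8.23e-25 and 6.19e-23). Osgin1 had its larger difference at 24 h (3.03 ± 0.31, adjusted p = 1.47e-10) and fell between the times (-1.42 ± 0.41, adjusted p = 0.00618), as Srxn1 did. Ftl1, ferritin light chain, was at 1.15 ± 0.14 and 2.74 ± 0.20 (adjusted p = 4.11e-09 and 1.04e-14). Sesn2 rose by 0.67 ± 0.08 at 24 h (adjusted p = 1.2e-08) and was at 0.24 ± 0.13 at 72 h (adjusted p = 0.117; without LF3 0.35, adjusted p = 0.00998).

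Of 23 other glutathione, thioredoxin and superoxide genes, 8 rose and 4 fell at 24 h and 9 rose and 2 fell at 72 h (9 and 4, and 7 and 3, without LF3). With LF3 in the fit these are 34.8% higher and 17.4% lower at 24 h and 39.1% and 8.7% at 72 h. The 7 of 23 that rose at 72 h without LF3 stand beside 25.7% of all genes called higher in that fit. Slc3a2, the heavy chain that pairs with Slc7a11, rose by 0.63 ± 0.06 at 24 h (adjusted p = 5.25e-11) and 0.50 ± 0.09 at 72 h (adjusted p = 2.76e-05). Gpx1, a glutathione peroxidase, rose by 0.49 ± 0.11 and 1.67 ± 0.16 (adjusted p = 0.000294 and 2.6e-11), and Gpx8 by 0.44 ± 0.17 and 2.00 ± 0.25 (adjusted p = 0.038 and 1.06e-08). Chac1, which degrades glutathione, rose at 24 h (0.64 ± 0.15, adjusted p = 0.00058) and was at 0.05 ± 0.23 at 72 h (adjusted p = 0.869). Txn2, mitochondrial thioredoxin, fell (-0.24 ± 0.05 and -0.19 ± 0.07, adjusted p = 3.94e-05 and 0.0207).

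Of 12 zinc-handling genes 11 were tested, and 3 rose and 3 fell at 24 h, and 4 rose and 5 fell at 72 h, with and without LF3, or 27.3% each way at 24 h and 36.4% and 45.5% at 72 h. The importer Slc39a14 rose by 0.89 ± 0.06 at 24 h (adjusted p = 5.72e-16) and 0.26 ± 0.09 at 72 h (adjusted p = 0.0147), and the importer Slc39a1 by 0.85 ± 0.07 and 1.56 ± 0.10 (adjusted p = 1.34e-13 and 3.03e-16). Slc39a8 was at -0.25 ± 0.13 at 24 h (adjusted p = 0.119) and 1.67 ± 0.19 higher at 72 h (adjusted p = 1.5e-09). Slc30a10, an exporter, fell (-1.29 ± 0.09 and -0.62 ± 0.14, adjusted p = 8.39e-15 and 0.000411), and so did Slc39a12 (-1.22 ± 0.11 and -0.59 ± 0.16, adjusted p = 1.36e-12 and 0.00275). Slc30a1, the zinc exporter that MTF1 induces, was at 0.13 ± 0.06 at 24 h (adjusted p = 0.0714) and rose by 0.32 ± 0.09 at 72 h (adjusted p = 0.00337). Mtf1 was 0.17 ± 0.06 higher at 24 h (adjusted p = 0.0186) and at -0.03 ± 0.09 at 72 h (adjusted p = 0.79). On the contralateral side, averaged over the sexes, 0 genes of these 4 lists rose at either time and 1 fell, the peroxiredoxin Prdx6 at 24 h (-0.26 ± 0.06, adjusted p = 0.00817; named after its value was seen). Without LF3, 2 other NRF2 targets, 2 genes of glutathione, thioredoxin and superoxide handling and 1 zinc gene passed as lower there at 24 h. In that fit 4.07% of all genes were called lower. In females alone 4 NRF2 targets (Txn1, Prdx1, Ftl1 and Slc48a1) and Gpx1 were called higher contralaterally at 72 h, at 0.95 to 1.28 (3.07% of all genes). Without LF3 0 genes of these lists were (0.0488% of all genes). Without the contralateral library of PF1, but with LF3, 7 other NRF2 targets, 5 glutathione, thioredoxin and superoxide genes and 1 zinc gene were (10.6%).

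**Figure D4:**
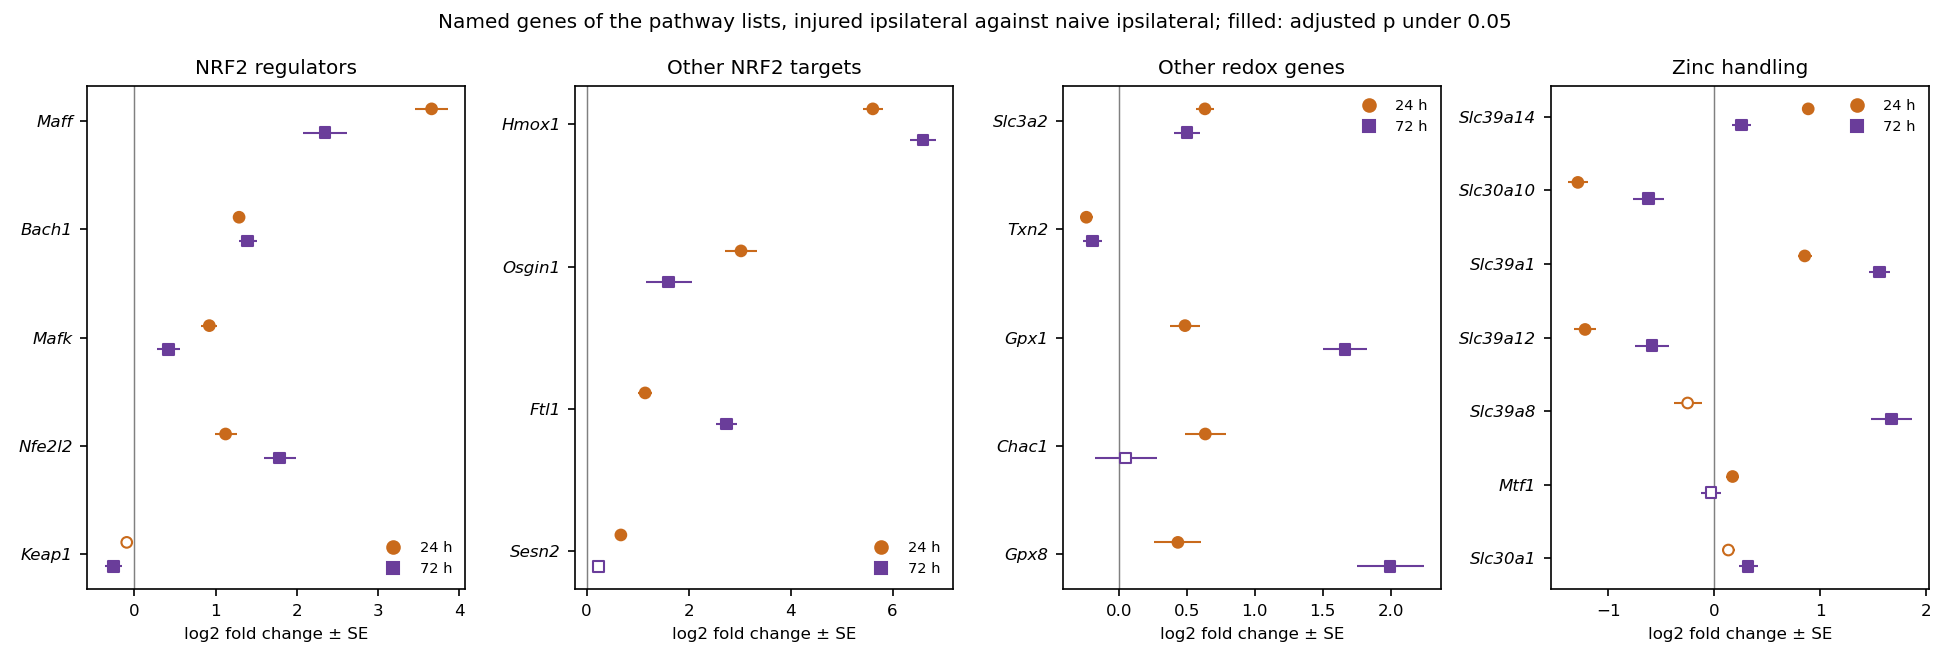
Log2 fold change and SE of the named genes of the 4 pathway lists in injured against naive ipsilateral punches at 24 h (circles) and 72 h (squares); filled symbols passed an adjusted p of 0.05, and each panel has its own scale. Maff, Mafk, Osgin1 and Slc39a14 lie lower at 72 than at 24 h, and Nfe2l2, Hmox1, Ftl1, Gpx1 and Slc39a8 higher.

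Markers of other cells moved over the same comparisons, and their part in the members' changes was not tested. The 8 markers of infiltrating myeloid cells all rose at both times; their summed level was 87.1 to 629 CPM (median 153) at 24 h and 187 to 1093 (median 413) at 72 h, against 11.7 to 41.0 (median 17.7) in naive ipsilateral punches. The 7 astrocyte markers, with 3 up and 3 down at 24 h and 4 up and 1 down at 72 h, summed to medians of 4012 and 5318 CPM against 4796. Microglia markers summed to medians of 99.6 and 306 CPM against 132.5. Of these 4, 3 were called lower and 1 higher at 24 h, and 3 higher at 72 h (4 without LF3). Endothelial markers summed to medians of 229 and 358 CPM against 179.6, with 2 and 3 of 4 called higher and 0 lower. Markers of meninges and fibroblasts summed to 48.9 and 224 against 47.1, with 2 up and 1 down at 24 h and 4 up and 1 down at 72 h. Oligodendrocyte markers stood at 2694 and 4131 CPM against 2097, red cell markers at 73.7 and 125.6 against 30.2, and neuron markers at 9038 and 6379 against 10510. Of 4 oligodendrocyte markers 1 rose at 24 h and 3 at 72 h, and all 4 red cell markers rose at both times. Of 6 neuron markers 2 fell at 24 h, and 1 rose and 4 fell at 72 h (0 and 5 without LF3). The punches are labelled as cortex, and neuron and astrocyte markers were present in every one.

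The genes whose pattern lay closest to each member were found from the mean log2 CPM of the 12 groups of sex, time and side, centred on each gene, as the smallest root mean square difference among 14031 genes (14032 for Mt2). For Srxn1 they were Hsd17b7 (0.0954), Slc39a14 (0.0978) and Ier2 (0.0988), and for Txnrd1 Mcl1 (0.0657), Plekha2 (0.0835) and Nos3 (0.0868). For Gsr they were Mob3a (0.0647), Npm1 (0.0803) and Wdhd1 (0.0807), and for Nqo1 Cenpx (0.0923), Pgap2 (0.103) and Mis18a (0.106). Gclc lay closest to Rnf31 (0.0411), Gclm to Degs1 (0.0552) and Slc7a11 to Smc6 (0.0366). Mt1 had no neighbour under 0.149 (Mylk), Mt3 had Psenen at 0.0842, and Mt2 had none under 0.393 (Gjb1). The groups of the females at 72 h hold LF3, so the distances of all members carry that animal. It stood furthest from the others in Mt1, Mt2 and Mt3. Its contralateral Gsr was 2.27 times, and its contralateral Slc7a11 0.412 times, the median of the other 72 h libraries of that side.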

How the data were processed

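RNA was sequenced from 88 cortical punches of 44 mice, and 87 libraries were compared. The authors deposited raw counts per Ensembl gene, not normalized. The submitters' processing notes name HISAT2 2.0.5 and mm10. How reads were counted, with which annotation and strand setting, was not given. Counts from unstranded libraries cannot separate overlapping genes. Symbols came from GENCODE M21 (54495 of 54532 identifiers matched), and promoter sequences from RefSeq (GRCm38.p6).

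Each side was fitted in edgeR 4.0.16 (R 4.3.3) on genes passing filterByExpr, with TMM scaling, groups of sex and time, and batch; contrasts averaged the sexes equally. The quasi-likelihood F test was two-sided, p-values were Benjamini-Hochberg adjusted over all genes tested (19126 ipsilateral, 18436 contralateral), with calls made under an adjusted p of 0.05. Both sides were compared over 86 libraries of 43 animals (19946 genes), with the animal, which the labels name for both punches, as a block. Each animal counts once per side; biological coefficients of variation were 0.234, 0.213 and 0.162. Levels in CPM used 1 TMM scaling of 87 libraries (factors 0.592 to 1.14), and log2 CPM a prior count of 2. Library totals of 10.6 to 26.36 M (1000000) counts set the precision of low genes.

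The members and gene lists were chosen with earlier results of these data known. The text names the 10 members and, of each pathway list, the 4 genes with the smallest p at 24 h and the 2 at 72 h, plus Nfe2l2, Keap1, Bach1, Hmox1, Mtf1 and Slc30a1. Alternatives were DESeq2 1.42.0, its size factors in edgeR, no filter, no batch term, single batches, no animal block, without PF1, without each ipsilateral library and, chosen after the values were seen, without LF3. The fit was tested on simulated data.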

Additional observations from a re-analysis of the deposited data

Results flagged for a closer look

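Each member was examined in each of the 12 groups of sex, time and side, 120 groups of values in all, for a highest or lowest library set apart from the rest of its group. There were 22 such values in 11 libraries; chance gives about 1 in 20 groups. LF3 (female, 72 h) accounts for 12. Its contralateral library was the highest of its 9 for Mt3 (1567 CPM, next 124.1), Mt1 (1253, next 125.4), Mt2 (9.883, next 0.887), Gclm (110.7, next 62.19) and Gsr (56.13, next 29.91), and the lowest for Gclc (32.82, next 60.51) and Slc7a11 (21.48, next 46.22). Its ipsilateral library was the highest for Mt3 (2245, next 188.1), Mt1 (3137, next 329), Mt2 (4.568, next 1.685) and Gclm (114.6, next 86.57), and the lowest for Txnrd1 (66.99, next 112.8).

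The female QF1 at 24 h stood apart on the contralateral side for Mt1 (245.3 CPM, next 147.2) and Srxn1 (167, next 102.8). Nqo1 at 24 h was set apart in 1 male on each side, DM2 ipsilaterally (4.873 CPM, next 2.723) and HM2 contralaterally (3.726, next 2.957). Mt1 was highest in the ipsilateral punch of the male FM3 at 24 h (355.7, next 286.1). At 72 h on the contralateral side the male LM2 was lowest for Slc7a11 (24.15, next 49.4) and the female SF1 lowest for Txnrd1 (48.76, next 54.48). Among naive mice the male EM3 was highest for ipsilateral Gclc (66.53, next 59.1), the male CM1 for contralateral Gclm (96.76, next 62.63) and the female GF2 for contralateral Txnrd1 (72.5, next 56.04).

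The difference between the ipsilateral and the contralateral punch was not the same at the 2 times for 4 members, tested as an interaction in the fit with the animal as a block. Taken as 72 h minus 24 h on the log2 scale it was 0.78 for Nqo1, 0.34 for Gsr, -0.46 for Srxn1 and -1.60 for Mt2.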

How the results depend on the processing

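Of 452 values of members in the comparisons described gene by gene, under alternatives other than leaving out 1 library, 403 kept their direction and their side of the threshold, 21 lost a call, 12 gained one and 16 turned. DESeq2's size factors and, where it gave an adjusted p, DESeq2 itself changed none of these. For the side difference at 24 h against naive, DESeq2 called Gclc as well. That made 7 members in place of 6, with 18.1% in place of 16% of genes called higher. DESeq2 gave no adjusted p for Mt3 ipsilaterally or for Mt1 and Mt3 contralaterally. The cause of the changes below was not tested unless the setting itself leaves libraries out.

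Without the animal block the pairing of the punches is lost, and 5 in place of 8 members (22.4% in place of 25.1% of genes) had a larger side difference at 72 h than in naive mice (Slc7a11, Mt2 and Mt3 were lost); Slc7a11 and Mt3 lost their side call at 72 h, and the change of the Mt1 side difference between the times turned to 0.035. Without LF3, 1 contralateral member was called at 24 h (6.46% of genes); without LF3 and the batch term it was 1 at 24 h (4.49%) and 2 at 72 h (10.4%), and 7 in place of 4 ipsilateral members differed between 72 and 24 h (56.1% of genes). Contralateral Mt1 and Mt3 at 72 h were -0.50 and -0.29 without LF3, and -0.42 and -0.30 without the batch term as well. For 72 h against 24 h ipsilaterally, no batch term gave Txnrd1 0.18, Slc7a11 -0.067 and Mt2 0.19; batch B alone gave Slc7a11 -0.041; leaving out LF3 gave Gclm -0.035, Txnrd1 0.10 and Mt1 -0.43; and leaving out both gave Gclm -0.0075, Txnrd1 0.22, Slc7a11 -0.043 and Mt1 -0.35.

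Leaving out each of 43 ipsilateral libraries kept 8 members called at 24 h, 7 to 10 at 72 h (9 to 10 where LF3 stayed in) and 4 to 6 between the times. The shares of all genes called in these fits are not given here, so the counts describe the members alone. Between the times the values ranged over -0.035 to 0.22 for Gclm, -0.12 to 0.10 for Txnrd1, -0.43 to 1.65 for Mt1 and -0.071 to 0.18 for Slc7a11. This was not run for the contralateral and side comparisons. Mt2 fell under the filter in batch A alone. Mt2 and Nqo1 have the fewest counts and so the least precision.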
